A study of Caenorhabditis elegans with 2 samples.

Results

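The binding of the tagged nuclear hormone receptor NHR-48 was examined at 9 other receptor genes of fat and propionate metabolism in Caenorhabditis elegans: nhr-49, nhr-80, nhr-13, nhr-66, nhr-105, nhr-22, nhr-68, nhr-10 and nhr-114. All 9 symbols matched a protein-coding gene, of 19973 on the nuclear chromosomes. The genes were chosen by their roles, with the peaks at nhr-68 and nhr-49 already known, and a gene was credited with every peak summit in its body or within 5000 bp upstream of it. The signals, ranks and counts that follow are therefore a description and were not tested.

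The data come from chromatin immunoprecipitation with sequencing (ChIP-seq), which maps where a protein sits on DNA, in whole L4 larvae, the last larval stage. The strain, OP518, carries the allele unc-119(tm4063) and the transgene wgIs518, from which NHR-48 is made with a GFP-FLAG tag on its C-terminal end. Hermaphrodites were collected 48.5 h after being synchronised as starved L1 larvae, and the antibody recognised GFP. There were 2 biological replicates of this 1 group, with no second group. The promoter that drives the transgene is not given in the sources used here, and signal from whole animals cannot tell a site bound in few cells from one bound weakly in many.

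Nuclear hormone receptors are transcription factors with a zinc finger DNA-binding domain, and many respond to small lipophilic ligands. NHR-49 resembles the vertebrate receptors of the HNF4 group and switches genes of fatty acid desaturation and breakdown, with the Mediator subunit MDT-15 as a coactivator; NHR-80 and NHR-13 act on desaturase genes and NHR-66 on sphingolipid genes. NHR-10 and NHR-68 turn on the propionate shunt, the route by which the worm clears propionate when vitamin B12 is low. NHR-114 acts on genes of the methionine cycle.

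The sequences below are those under the strongest summit of each propionate or methionine receptor gene and under the 3 strongest of nhr-105, which had the most peaks. They are the plus strand of ce11, 100 bp centred on the summit, and capitals mark any of the 6 motifs searched on both strands (the receptor core AGTTCA, another such core with G in its middle, AGTGCA, and one with a doubled G, AGGTCA, the site of GATA factors, TGATAA, the E-box CACGTG, and the repeat GAGAGA). The nhr-68 window lies at chrV:11572998-11573097, the nhr-105 windows, from the farthest to the nearest to the gene, at chrIV:7047845-7047944, chrIV:7048046-7048145 and chrIV:7049757-7049856, the nhr-10 window at chrIII:7116734-7116833 and the nhr-114 window at chrV:4186438-4186537. None of these windows overlaps an annotated UTR.
nhr-68: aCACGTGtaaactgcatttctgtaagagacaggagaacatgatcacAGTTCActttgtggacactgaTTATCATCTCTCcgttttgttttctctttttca
nhr-105, 2261 bp upstream: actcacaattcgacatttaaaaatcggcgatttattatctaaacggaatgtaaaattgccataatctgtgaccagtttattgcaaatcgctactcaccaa
nhr-105, 2060 bp upstream: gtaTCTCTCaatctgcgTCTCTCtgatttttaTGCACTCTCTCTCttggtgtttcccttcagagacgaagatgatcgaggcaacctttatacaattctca
nhr-105, 349 bp upstream: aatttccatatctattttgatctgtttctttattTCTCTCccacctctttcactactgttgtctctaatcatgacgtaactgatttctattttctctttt
nhr-10: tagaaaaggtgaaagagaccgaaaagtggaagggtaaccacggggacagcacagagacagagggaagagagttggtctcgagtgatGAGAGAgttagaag
nhr-114: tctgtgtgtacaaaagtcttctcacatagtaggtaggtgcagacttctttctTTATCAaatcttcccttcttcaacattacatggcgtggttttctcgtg

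Reproducible NHR-48 peaks lay at 6 of the 9 receptor genes: nhr-68, nhr-105, nhr-66, nhr-49, nhr-114 and nhr-10. None lay in the windows of nhr-80, nhr-13 and nhr-22. Reproducible here means listed by a filter on the irreproducible discovery rate (IDR), a measure of how well 2 replicates rank a region alike. The IDR list held 3361 peaks, which are the 3361 regions of highest signal in the list called on both replicates pooled. A listed peak therefore need not rank high in each replicate. Of all 19973 genes, 4004 (20.0%) had an IDR summit in the same window, and of the 260 other genes named nhr-, 63 (24.2%). The median window was 8295 bp for the 9 genes and 7027 bp for all genes, so the windows of the 9 genes were longer. When a summit counted only for the gene with the nearest annotated 5′ end, 5 of the 9 genes had one, against 10.7% of all genes. The gene lost was nhr-68, whose peak is nearer to H12C20.7.

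The 6 genes held 13 IDR peaks. At least 2 lay at 4 of the 9 genes (nhr-105, nhr-49, nhr-66 and nhr-114), where 5.65% of all genes had as many. The 2 intervals at nhr-66 shared 273 bp and those at nhr-114 248 bp, so neither gene had 2 separate regions. Overlapping intervals were counted apart for all genes too, and no share with them merged is given. The summits of 10 peaks were upstream of the gene and those of 3 inside it. Intergenic sequence held 8 summits, introns 3 and 5′ UTRs 2, and 7 lay 0 to 500 bp upstream of a 5′ end of the receptor gene itself. The window of another protein-coding gene also covered 9 of the 13 summits, and for 11 the nearest 5′ end was the receptor's own. Of the 13, 12 had the width most common in the list, 476 bp. The pooled list with background, 30000 regions, had a region at all 9 genes, from 3 at nhr-13 to 13 at nhr-66, but 67.2% of all genes had one too.

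**Figure D1:**
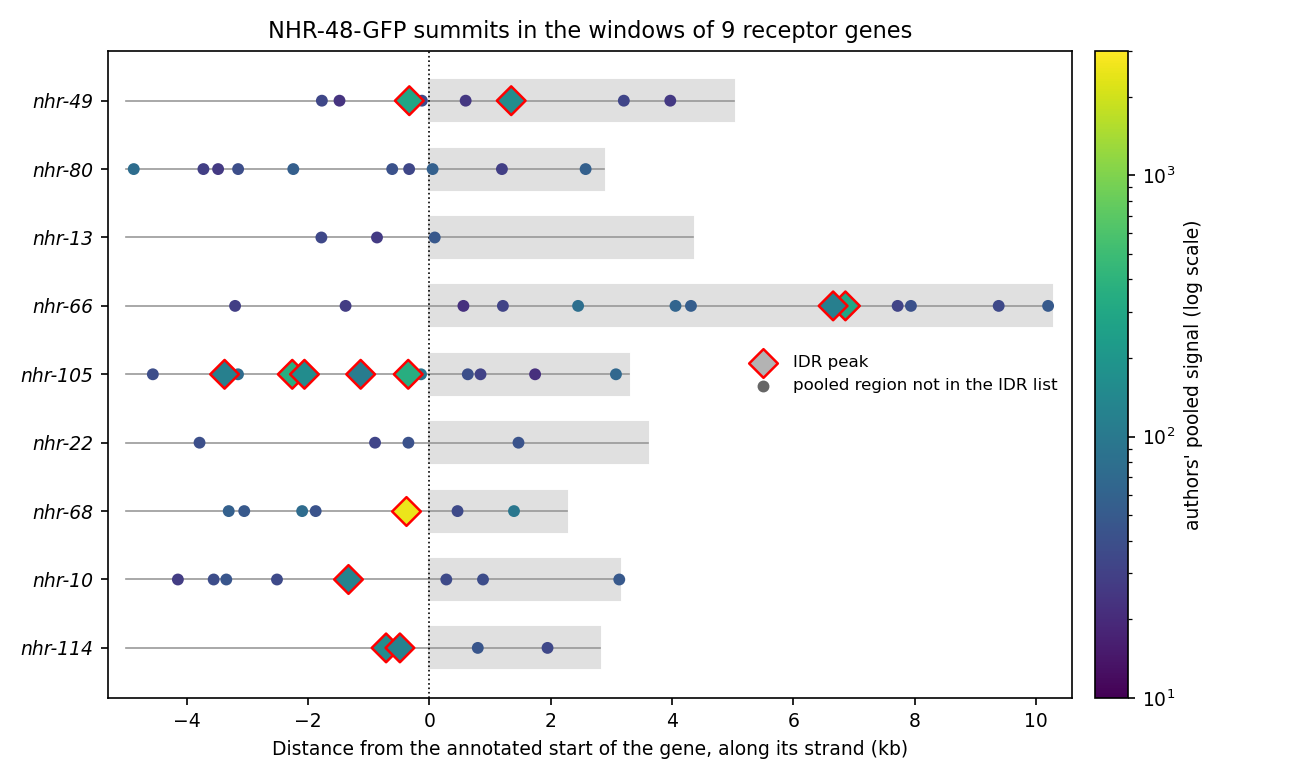
Position of each pooled region's summit (x axis, kb from the annotated start of the gene along its strand; grey boxes are gene bodies) at the 9 receptor genes, with colour for the authors' signal on a log scale. Red-edged diamonds are the 13 IDR peaks: the brightest is at nhr-68, 392 bp upstream, nhr-105 has 5 upstream of the gene, and nhr-80, nhr-13 and nhr-22 have dots only.

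The peak at nhr-68 stood far above those of the other 8 genes. Its signal was 2512 in the pooled list, 1529.8 in replicate 1 and 987 in replicate 2. Pooled, that was 7.0 times the next highest of the 9 genes, at nhr-105. Among the nuclear regions of each list it ranked 4 in the pooled list, 5 in replicate 1 and 4 in replicate 2. With mitochondrial regions counted, as in the ranks given for the other genes, it ranked 18, 10 and 20 in the same lists. The IDR list held 23 mitochondrial peaks. The 3 summits lay within 1 bp of each other. At 671 bp the interval was wider than the common width, and 35 nuclear IDR peaks were at least as wide.

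The gene nhr-68 lies at chrV:11573440-11575709 on the plus strand, and the summit, at 11573048, is intergenic, 392 bp upstream of it. The nearest 5′ end belongs to H12C20.7, on the minus strand, 58 bp away, so the peak sits between 2 genes that are read away from each other. The window of pms-2, a DNA mismatch repair gene, also covered it. A second region, in a coding exon of nhr-68 and 198 bp upstream of a further annotated 5′ end of that gene, fell just short of the IDR list: its pooled signal was 95.3 and its rank 3365, where the last IDR peak had 95.4. That region ranked 2941 in replicate 1 (signal 62.8) and 5246 in replicate 2 (signal 32.8).

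The other propionate receptor, nhr-10 (chrIII:7112295-7115438, minus strand), which acts upstream of nhr-68, had 1 modest peak, 1346 bp upstream of its start and intergenic. It had 128 in the pooled list, 52.6 in replicate 1 and 70.5 in replicate 2. Its ranks in these lists were 2253, 3785 and 1572. The replicate 1 rank lay beyond 3361, so the top-ranked regions of that replicate alone left nhr-10 without a peak.

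At the methionine-cycle receptor gene nhr-114 (chrV:4187202-4190008, plus strand), 2 summits 228 bp apart lay 714 and 486 bp upstream, both in an intron of the neighbouring gene Y45G5AM.9. Their intervals shared 248 bp. The farther one had a signal of 155 in the pooled list, 79.2 in replicate 1 and 83.5 in replicate 2. The nearer one had 124, 85.8 and 34.2 in the same lists, and its replicate 2 rank of 4888 lay outside the top 3361. Both replicates thus held the farther summit among their strongest regions, and replicate 1 alone the nearer one.

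Among the receptors that work with NHR-49, nhr-105 had the most peaks. Its 5 summits lay upstream of the gene (chrIV:7050156-7053450, plus strand) and all in intergenic sequence. At least 5 IDR summits were found in the windows of 53 of all 19973 genes (0.265%), with overlapping intervals counted apart. Of the 5 at nhr-105, 2 overlap. The 2 strongest were similar in the pooled list, 358.6 at 2261 bp upstream and 354 at 349 bp upstream. In replicate 1 these had 208.7 and 169, and in replicate 2 148 and 187, so their order differed between the replicates. The summits at 2060 bp (pooled signal 156), 3377 bp (117) and 1133 bp (108) were weaker. The first of these was 201 bp from its stronger neighbour and shared 275 bp of interval with it. The summit at 3377 bp lay nearer to the 5′ end of tin-9.1, the gene of a mitochondrial import chaperone, than to that of nhr-105. The window of tin-9.1 also covered every nhr-105 summit except that at 349 bp, so the count is not particular to nhr-105. A region 138 bp upstream of nhr-105 missed the IDR list with a pooled signal of 92.2.

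The peaks of nhr-66 lay deep inside the gene. This gene, at chrIV:8226331-8236602 on the minus strand, has 7 distinct annotated 5′ ends and is the longest of the 9, at 10272 bp. Its summits were 6860 and 6657 bp into the gene, 165 and 368 bp upstream of an internal 5′ end, and both fell in a 5′ UTR of a longer nhr-66 transcript. The stronger had a signal of 294.6 in the pooled list, 178 in replicate 1 and 113 in replicate 2. The weaker, 203 bp away, had 113.7, 45.8 and 45.98 in the same lists. No IDR summit lay upstream of the annotated start within 5000 bp, so nhr-66 dropped out when the gene body was not counted.

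The gene nhr-49 itself, at chrI:9869651-9874680 on the plus strand, had 2 peaks, each a short way upstream of one of its 6 distinct 5′ ends. The first lay 331 bp upstream of the gene, with a signal of 294 in the pooled list, 164 in replicate 1 and 132 in replicate 2. The second lay in an intron, 1349 bp into the gene and 228 bp upstream of an internal 5′ end, with 160, 69.5 and 89.4. Its rank was 2551 in replicate 1 and 1039 in replicate 2. The sequence of these peaks is not shown.

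For nhr-80, nhr-13 and nhr-22 only weak regions were listed. The strongest pooled region in the window of nhr-80 (chrIII:11985-14869, minus strand) had a signal of 74.6 and a rank of 4691, and it lay 4875 bp upstream, 69 bp from the 5′ end of H10E21.4. A region 53 bp inside nhr-80, in its 5′ UTR, had 56.8. The strongest at nhr-13 (chrV:2192485-2196827, plus strand) had 47.5, in a coding exon 88 bp inside the gene. The strongest at nhr-22 (chrII:6446195-6449792, minus strand) had 42.6, in an intron. All pooled regions at these 3 genes ranked lower than 3361, as did all their replicate regions, of which the highest were at rank 5582 in replicate 1 and 4711 in replicate 2, both at nhr-80. Binding at these genes was not detected by the IDR list, and the depth behind the lists is unknown.

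**Figure D2:**
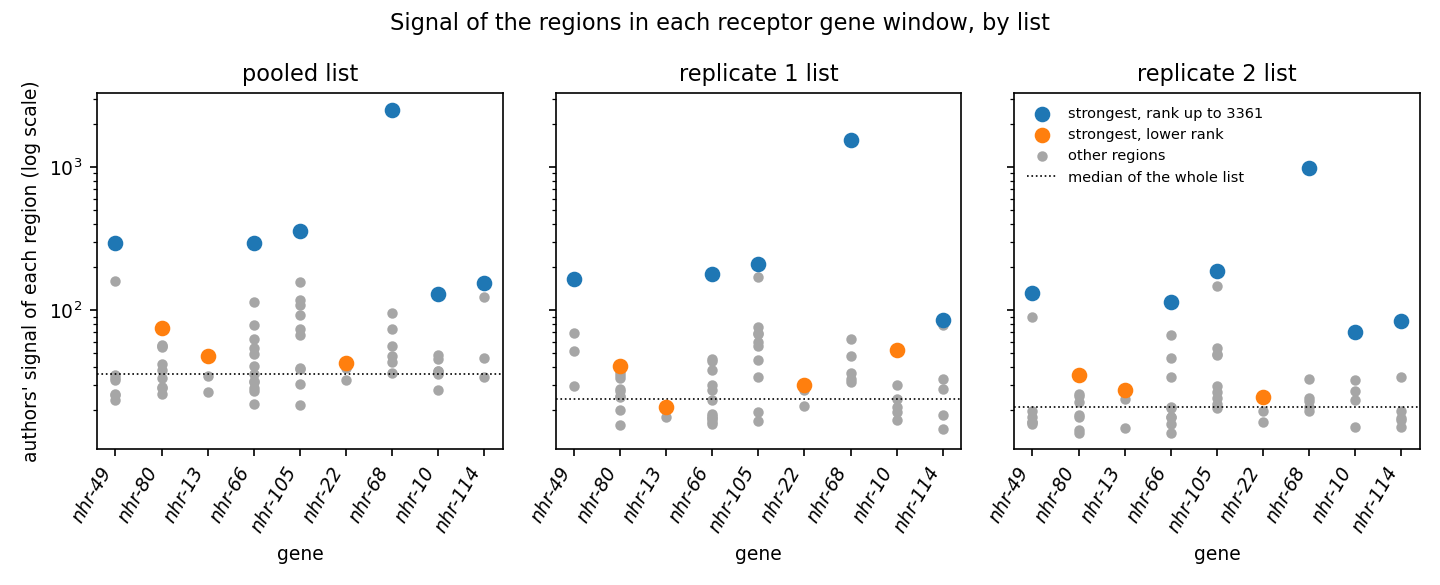
The authors' signal of every region (y axis, log scale) in the window of each receptor gene (x axis), in the pooled list and in the lists of replicates 1 and 2; the scale differs between lists. Blue marks a strongest region ranked up to 3361, orange one ranked lower, and the dotted line is the median of the whole list: nhr-68 is highest in all 3 panels, nhr-80, nhr-13 and nhr-22 are orange in all 3, and nhr-10 is orange in replicate 1.

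By strongest pooled signal the order of the 9 genes was nhr-68 (2512), nhr-105 (358.6), nhr-66 (294.6), nhr-49 (294.5), nhr-114 (155), nhr-10 (128), nhr-80 (74.6), nhr-13 (47.5) and nhr-22 (42.6). The median of these values was 155, against 46.04 for the other nhr genes and 36.9 for all genes, counted as 0 where a gene had no region. In replicate 1 the medians were 85.8 for the 9 genes, 27.1 for the other nhr genes and 23.8 for all genes. In replicate 2 they were 83.5, 23.5 and 18.8 in the same order. Neighbours in the order changed places between replicates: nhr-66 was above nhr-49 in replicate 1 (178 and 164) and below it in replicate 2 (113 and 132), and nhr-22 was above nhr-13 in replicate 1 (30.04 and 21.05) and below it in replicate 2 (24.7 and 27.7). Their order is within the difference between the 2 replicates. The other 5 genes, with nhr-68 and nhr-105 at the top, each held 1 place in all 3 lists.

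Each of the 13 peaks was overlapped by a region in both replicate lists, which hold 26941 and 22704 regions. The nearest replicate summit was at most 29 bp away in replicate 1 and at most 80 bp away in replicate 2. That nearest region was among the top 3361 of both replicates for 10 of the 13 peaks. The exceptions were the weaker nhr-66 summit and the nhr-10 peak, at ranks 4605 and 3785 in replicate 1, and the nearer nhr-114 summit, at rank 4888 in replicate 2. The pooled signals of these 3 were 113.7 at nhr-66, 128 at nhr-10 and 124 at nhr-114. The share of all IDR peaks in the top 3361 of both replicates is not given, so 10 of 13 has no background here. The IDR list derives from these same replicates, so the presence of the peaks in both is not independent of how they were chosen. It was not a condition of listing, since some IDR peaks elsewhere had no region in the replicate 2 list.

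**Figure D3:**
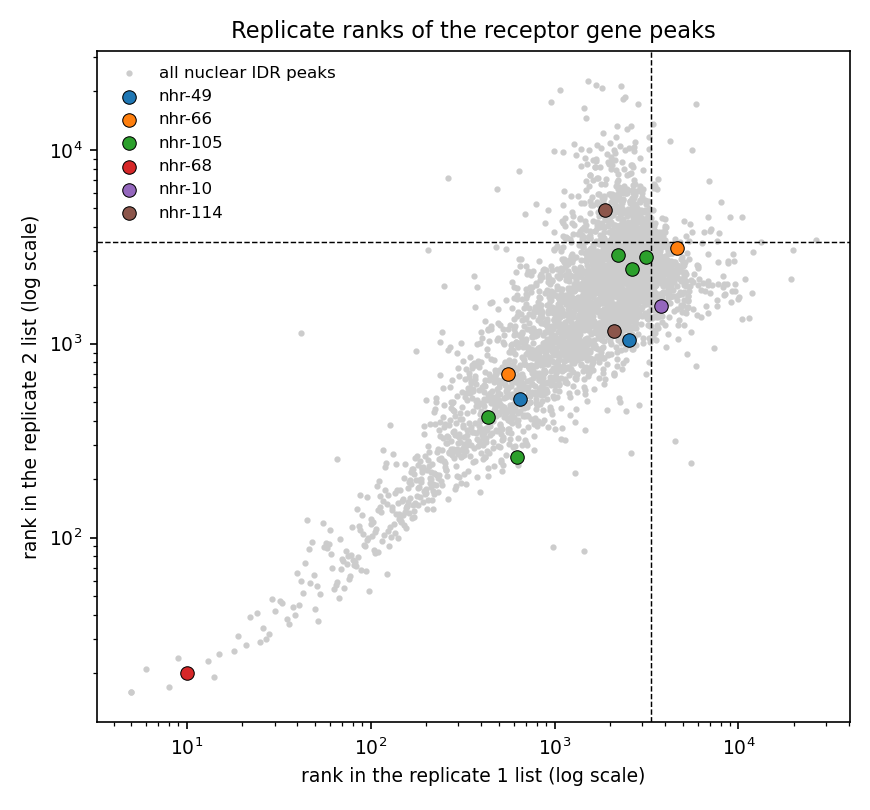
Rank of the nearest region in replicate 1 (x axis, log scale) against its rank in replicate 2 (y axis, log scale) for the 13 receptor gene peaks, coloured by gene, over nuclear IDR peaks in grey. The key calls the grey points all nuclear IDR peaks, but those without a region in both replicate lists are not drawn. Dashed lines mark rank 3361: nhr-68 lies at ranks 10 and 20 of the full lists, and 3 peaks fall outside one of the lines.

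The summit sequence of nhr-68 held 4 of the 6 motifs, as 4 of the 3338 nuclear IDR summits did (0.12%). In the order of the capitals in its sequence above, these were 1 E-box, 1 receptor core (AGTTCA), and, abutting on the minus strand, 1 GATA factor site and 1 GAGAGA. The motifs were picked with earlier results of these data known, so this describes 1 window. Of the 13 summits, 8 held at least 1 motif, against 53.4% of all nuclear IDR summits. GAGAGA was in 6 of 13 (21.9% of all) and TGATAA in 3 (20.3%). The E-box was in 1 (7.91%), AGTTCA in 1 (5.27%) and AGTGCA in 1 (6.14%), while AGGTCA was in 0 (3.45%).

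The nhr-105 summit at 2060 bp held 4 matches of GAGAGA, of which 2 overlap each other, and an AGTGCA that shares a base with 1 of them. Its stronger neighbour at 2261 bp held none of the 6 motifs, and neither did the stronger nhr-66 summit. A match is only a run of letters in the window, and nothing follows from its absence about which factor binds there. The G and C content of the 13 windows ran from 30% to 57%, with a median of 40%, and the median of all nuclear IDR summits was 44%.

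**Figure D4:**
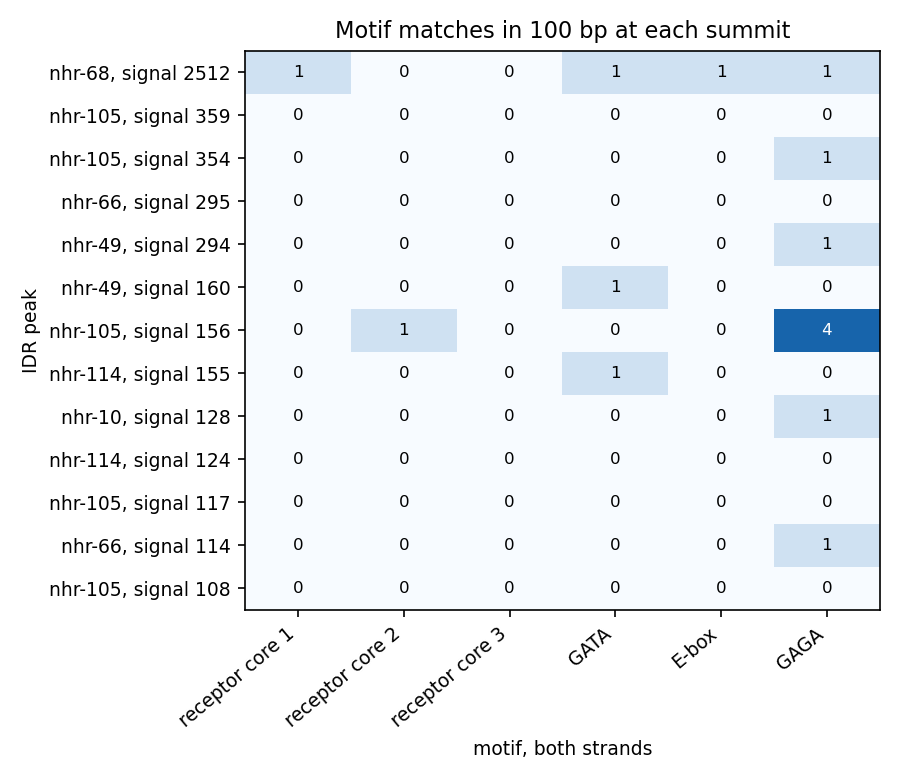
Number of matches of each motif on both strands (columns) in the 100 bp centred on each of the 13 IDR summits (rows, by falling pooled signal), with receptor cores 1, 2 and 3 in the order in which the text introduces them. The nhr-68 row has 4 motifs, no other row has more than 2, and 5 rows have none.

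Genes of pathways tied to these receptors, and other regulators linked to NHR-49, were examined in the same window. They form 9 lists, compiled with earlier results of these data known and not tested. All 96 symbols matched, and 50 genes had an IDR summit, against 20.0% of all genes. When a summit counted only for the gene with the nearest 5′ end, 39 had one, against 10.7% of all genes. The median windows of the lists ran from 6951 to 10608.5 bp, against 7027 bp for all genes. Fatty acid desaturase genes had one in 6 of 7 cases. The strongest were at fat-2 (469, 1249 bp upstream) and fat-1 (338.8, 1290 bp upstream), followed by a peak shared by the neighbours fat-3 and fat-4 (259). The remaining gene, fat-7, named after its values were seen, had 3 pooled regions, with a highest signal of 59.2. Fatty acid elongation genes had 5 of 10, among them elo-1 and elo-7, which share 2 peaks (189 and 120.3), elo-3 (179.6, nearer to D2024.4) and elo-6 (105.5).

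Genes of mitochondrial fatty acid breakdown had summits in 10 of 17 cases. The highest were at the carnitine palmitoyltransferase genes cpt-1 (435) and cpt-2 (223), the dehydrogenase gene hacd-1 (219.9), where the 5′ end of chil-14 is nearer, and the acyl-CoA synthetase gene acs-2 (209.8). Of the peroxisomal genes 4 of 11 had one, which were acox-1.6 (1060, nearest to serp-1.1), dhs-28 (218) and, at 1 shared peak, acox-1.3 and acox-1.4 (122). Of 8 other regulators linked to NHR-49, 4 had one. These were the hypoxia factor gene hif-1 (945, 1993 bp upstream), the gene of the coactivator mdt-15 (283, 4568 bp upstream and nearer to W04D12.1), the TFEB-like factor gene hlh-30 (205) and nhr-25 (99.2).

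Of the 5 propionate shunt genes, whose activation needs NHR-10 and NHR-68, 4 had an IDR summit, with ranks from 1024 to 2976 of 3361. The pooled signals were 209.5 at hach-1 (nearer to nmad-1), 159.7 at alh-8, 134 at hphd-1 and 104.8 at ech-6. The gene of the first step, acdh-1, named after its values were seen, had no IDR summit, and its strongest pooled region had a signal of 84.6 at rank 3945. In the route that needs vitamin B12, 1 of 6 genes had a summit, mce-1, at rank 3320 of 3361 (96.5). Genes of the methionine cycle, on which NHR-114 acts, and of its branches had 11 of 15. The strongest were at mel-32 (384), cbs-1 (352), cth-2 (332) and mtrr-1 (278), and for each of these 4 the 5′ end of another gene was nearer (let-721, gnrr-3, acs-6 and gldi-3). Sphingolipid genes had 5 of 17, led by the ceramide synthase gene hyl-1 (360, nearest to pkg-2), sptl-3 (176), hyl-2 (172) and cgt-3 (133). Shares of the sphingolipid list and of the B12-dependent list, 29.4% and 16.7%, were near the 20.0% of all genes.

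**Figure D5:**
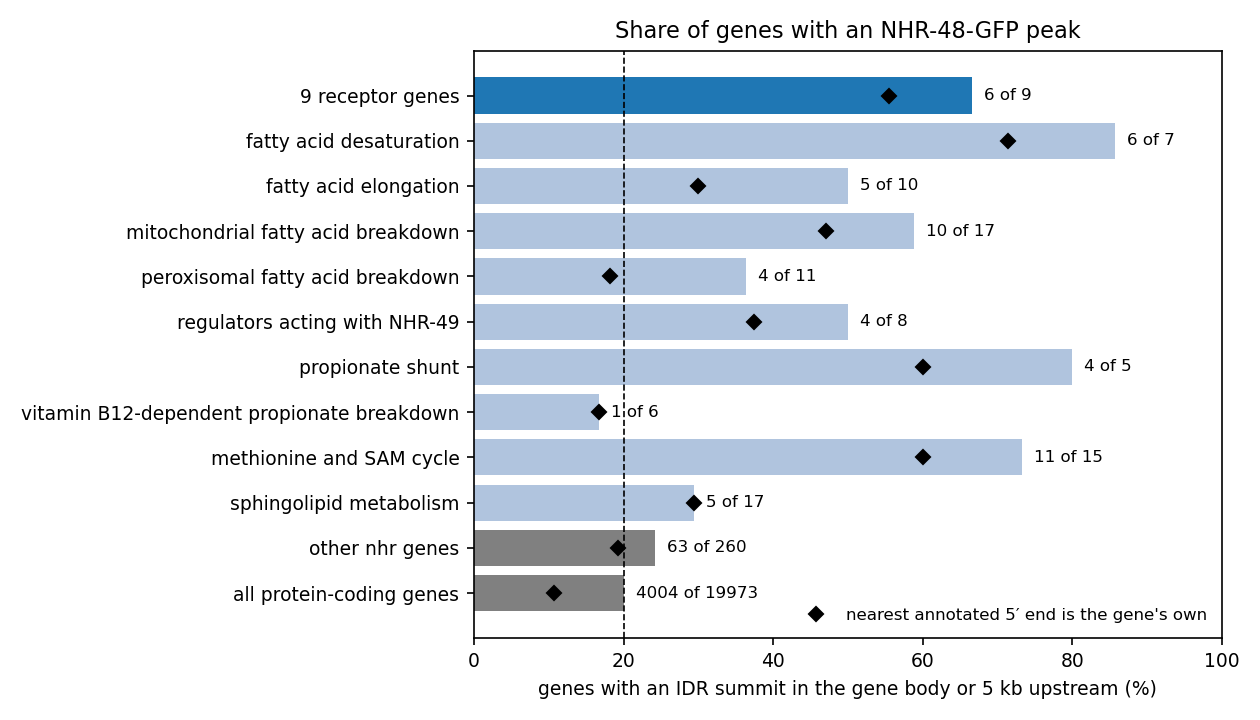
Share of genes with an IDR summit in the gene body or 5 kb upstream (x axis, percent) for the 9 receptor genes, the 9 lists, the other nhr genes and all protein-coding genes. Diamonds count a summit only for the gene with the nearest 5′ end, and the dashed line is the 20.0% of all genes: the bars of the receptor genes (6 of 9), of the other nhr genes and of every list but the B12-dependent one (1 of 6) reach past it.

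Among 2162 peaks that were the strongest of some gene, those most like the nhr-68 peak in log2 signal over the 2 replicates were at R03E9.2, R11F4.1 and pqn-41. Their distances were 0.10, 0.20 and 0.20 log2 units. The R03E9.2 peak had 1635.5 in replicate 1 and 971 in replicate 2, the R11F4.1 peak 1578 and 1127.5, and the pqn-41 peak 1388 and 894. Each lay farther from a 5′ end of its gene than the nhr-68 peak did, at 4491, 2511 and 2306 bp upstream of one. The first 2 were intergenic and the last lay in an intron of pqn-41. Somewhat less alike peaks went both ways: a peak at 0.24 log2 units lay 1983 bp upstream and another, at 0.33, lay 224 bp upstream. Whether another gene has a nearer 5′ end is not given for these peaks.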

How the data were processed

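The authors deposited narrowPeak lists of regions on ce11 and ce10. By the listings deposited with the files, the IDR list derives from 3 lists of peaks with background, those of both replicates and of the replicates pooled. No source used here names the aligner, the peak caller or the IDR threshold. Signal is the authors' value per region, on their caller's scale, and regions were described and ranked by it only inside a single list. Their deposited −log10 q value was at its highest, 3.75, for 12 of the 13 pooled member peaks and was not used for ranking. The lists carry no read counts, so depth is unknown.

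Only ce11 was used, with 1 common window rule (gene body and 5000 bp upstream, Ensembl release 115 genes) and summits taken from the authors' offset. No region ran past a chromosome end of the reference genome, WBcel235. A replicate's top-ranked regions are its first 3361 by signal. Members and gene lists were chosen with earlier results of these data known. All 9 members were named, as were the 4 genes of highest signal in each list, the gene of the nearest 5′ end where it was another, and the 3 genes whose strongest peak was nearest to that of nhr-68. Motifs were searched in ce11 sequence. No significance test was run. Proteins were not compared. Window and motif code was tested on simulated summits and sequences. Python 3.11.15, numpy 2.4.6, pandas 2.3.3 and matplotlib 3.10.9 were used.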

Additional observations from a re-analysis of the deposited data

How the results depend on the processing

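Over 10 other window or peak choices, 4 to 6 of the 9 receptor genes had a peak, the lowest with the stronger 1680 IDR peaks alone, where nhr-10 and nhr-114 had none. The 13 peaks became 8 with 1000 bp upstream or with a promoter window of 1000 bp upstream to 200 bp downstream, 7 with the stronger IDR peaks, and 10 with overlapping intervals merged; the 50 listed genes became 33, 29 and 32 under the first 3 of these. Of all genes, 11.1% had a peak with 1000 bp upstream and 9.0% with the promoter window. In 50 bp windows 5 of the 13 summits held a motif, against 1001 of the 3338 nuclear IDR summits. In 200 bp windows 12 did, against 2494 of the 3338. In the main 100 bp windows these numbers were 8 and 1782, so both groups rose with window size. GAGAGA was in 2 of the 13 in 50 bp windows (392 of the 3338). It was in 6 in 100 bp windows (730) and in 8 in 200 bp windows (1181). With 1 replicate's top-ranked regions alone, 5 to 6 genes, 13 peaks in either, and 46 to 51 listed genes were found, against 19.7% to 20.0% of all genes. The 13 were spread differently over the genes. In replicates 1 and 2, nhr-66 had 1 and 3, nhr-105 6 and 5 and nhr-68 2 and 1. At nhr-10 there were 0 and 1, and at nhr-114 2 and 1. The region nearest to each gene's strongest pooled summit then ranked from 520 to 648 for nhr-49, 557 to 696 for nhr-66, 420 to 434 for nhr-105, 10 to 20 for nhr-68, 1572 to 3785 for nhr-10 and 1162 to 2117 for nhr-114; another summit ranked higher at nhr-105 in replicate 2 (259) and at nhr-114 in replicate 1 (1885). An overlap with a top-ranked region of both replicates held for 12 peaks, and for 10 when summits had to lie within 100 bp. No share of all IDR peaks is given for either count. No paired analysis was possible because there was 1 group. Depth is unknown and sets no limit that could be computed.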

Other observations

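Just outside the 5 kb windows lay 3 further IDR peaks. The first was 5010 bp upstream of nhr-66, where T09A12.8 has the nearest 5′ end, with a pooled signal of 144. The second was 5309 bp upstream of nhr-105 and 245 bp upstream of tin-9.1 (121.5), and the third 5282 bp upstream of nhr-10 (139). For nhr-66, whose peaks in the window are all inside the gene, a replicate 2 region at rank 1757 fell within the window, 4999 bp upstream.

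Among all genes named nhr-, nhr-68 had the highest signal in this window. The next were nhr-21 (1394), nhr-48 itself (1032), nhr-20 (987), nhr-14 (981) and nhr-19 (951), all above the 358.6 of nhr-105. Reads from the nhr-48 gene and from the transgene cannot be told apart in these lists.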
